A study of Homo sapiens with 6 samples.

Results

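The miRNAs hsa-miR-192-5p, hsa-miR-194-5p and hsa-miR-215, called miR-192-5p, miR-194-5p and miR-215 from here on, were followed in HuH7 cells with and without cisplatin. They were found by name among the 2019 human probes of the array, taking the 5p arm or the name without an arm, which gave 3 probes (MIMAT0000222, MIMAT0000460 and MIMAT0000272) with 1 spot each. HuH7 is an established human hepatocellular carcinoma line, and cisplatin is a platinum drug that crosslinks DNA. The control group was HuH7 without cisplatin and the treated group HuH7 with 1 µg/ml cisplatin, both at 24 h, with total RNA of 3 samples in each group on 1-colour arrays. The series asks which miRNAs go with the drug's action. The labels number the samples but do not tell cultures apart. A p-value here sets a difference against the scatter of these samples, and that scatter may be technical. In bulk RNA, fewer expressing cells and less RNA per cell cannot be told apart.

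A microRNA is cut from a hairpin transcript and guides repression of mRNAs that pair with its seed, the bases near its 5′ end. The miR-192 and miR-194 families are abundant in liver, gut and kidney, where hepatocyte nuclear factors drive their transcripts. miR-192 and miR-215 are also known for slowing proliferation.

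The mature sequences are shown because the members fall into 2 seed groups and because a pair of them is nearly identical. They are RefSeq sequences from the build GRCh38.p14, 5′ to 3′, with the seed (bases 2 to 8) in capitals.
miR-192-5p: cUGACCUAugaauugacagcc
miR-215 (miR-215-5p in RefSeq): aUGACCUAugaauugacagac
miR-194-5p: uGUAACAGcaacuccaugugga
miR-192-5p and miR-215 share the seed UGACCUA, and among 2370 mature human miRNAs in the RefSeq table no other has it at these bases. miR-194-5p has the seed GUAACAG, which 1 miRNA of the table, itself, has there. Counted from the 5′ end of miR-192-5p, miR-215 differs by C1A and C20A and is identical at 19 of 21 bases (90.5%). The sequences of the array's probes were not used here, and whether the probes for miR-192-5p and miR-215 bind each other's target was not tested.

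The members come from a pair of clusters. On chromosome 11, MIR192 (chr11:64891137-64891246, minus strand) lies 108 bases from MIR194-2 (chr11:64891355-64891439, minus strand), both inside MIR194-2HG, a long non-coding RNA gene on the same strand. On chromosome 1, MIR215 (chr1:220117853-220117962, minus strand) lies 194 bases from MIR194-1 (chr1:220118157-220118241, minus strand). Both of these lie inside the non-coding gene LOC124904515 on the same strand and inside IARS2, the mitochondrial isoleucyl-tRNA synthetase gene, on the opposite strand. Exons and introns were not used here. The hairpins of miR-194 are shown, with the 5p arm in capitals, because both give the same mature miRNA.
MIR194-2: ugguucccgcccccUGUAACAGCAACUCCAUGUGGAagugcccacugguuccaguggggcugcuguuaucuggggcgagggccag
MIR194-1: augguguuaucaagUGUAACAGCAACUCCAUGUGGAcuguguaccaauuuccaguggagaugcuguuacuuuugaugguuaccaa
The miR-194-5p probe therefore reads the output of both clusters together, while miR-192-5p stands for the chromosome 11 cluster and miR-215 for that on chromosome 1.

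A probe was counted as detected where its foreground, the median pixel intensity of its spot in scanner units, exceeded a limit set by the 925 blank spots on the same array (their mean and 2 SD above it). That limit lay between 209 and 247. Between 500 and 738 probes were detected on control arrays and between 329 and 713 on cisplatin arrays, with cisplatin replicate 2 the lowest. Tests were run on the 324 probes that all 3 arrays of either group detected. All 3 members were among them, detected on 6 of 6 arrays. Both arms of miR-122, the defining miRNA of hepatocytes, were detected on 6 of 6 arrays. Of 16 marker probes for endothelial, blood, muscle, stromal and neural cells, 3 were detected on all 6 arrays (miR-126-3p, miR-143-3p and miR-145-5p) and 3 on none.

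After cisplatin, the raw spots of miR-192-5p and miR-194-5p were brighter in each same-numbered pair, as were the spike control spots on average. Both members' differences between groups were smaller than their SE once all arrays had a common intensity distribution. miR-215 lay close to background in both groups. With quantile normalization none of the 3 members passed the test in limma, at a Benjamini-Hochberg adjusted p under 0.05 over all tested probes. miR-192-5p and miR-194-5p passed, and miR-215 did not, with median or 75th percentile scaling and the sample number as a block. Those fits were chosen after seeing the data, and 8.33% and 6.17% of all tested probes passed in them. None of the members passed with the block and no normalization, cyclic loess, spike spot scaling or the authors' deposited values.

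For miR-192-5p, the member with the chromosome 11 locus alone, raw foreground was 1322, 1550 and 1634 on control arrays 1, 2 and 3 and 1517, 2150 and 2073 on cisplatin arrays 1, 2 and 3. Means were 1502 ± 161 and 1913 ± 345 (SD, n = 3 each). The groups overlapped, since cisplatin array 1 lay below control arrays 2 and 3, and number 1 was the lowest in both groups. Within same-numbered pairs the cisplatin spot was 14.8%, 38.7% and 26.9% brighter, higher in 3 of 3.

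For miR-194-5p, which represses genes by a seed of its own, raw foreground was 1343, 1766 and 1955 on control arrays and 1634, 2321 and 2488 on cisplatin arrays, in the order of the numbers. Means were 1688 ± 313 and 2148 ± 453 (SD, n = 3 each). The groups overlapped here too, and number 1 was again lowest in both. The cisplatin spot was brighter by 21.7%, 31.4% and 27.3% in pairs 1, 2 and 3.

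For miR-215, the seed partner of miR-192-5p, raw foreground was 276, 313 and 312 on control arrays and 272, 378 and 339 on cisplatin arrays. Means were 300.3 ± 21.1 and 330 ± 53.6 (SD, n = 3 each). Its spot exceeded the blank limit by a factor of 1.25 to 1.53, against 6.01 to 9.12 for miR-192-5p and 6.10 to 10.9 for miR-194-5p. The pairs were split for miR-215, with differences of -1.45%, 20.8% and 8.65%, and the groups overlapped. Signals of different probes are not levels on 1 scale, so the amounts of the 3 miRNAs are not ranked.

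Raw foreground higher in the cisplatin array of every pair was thus seen in 2 of 3 members, against 26.2% of all tested probes. The mean of the 16 spike control spots was also higher on the cisplatin array of every pair. It was 7662, 9954 and 10429 on control and 8742, 10567 and 12574 on cisplatin arrays 1, 2 and 3. The median foreground of all human probes was lower in every pair, at 214, 227 and 223 on control and 202, 226 and 219 on cisplatin arrays. How far array brightness enters the members' differences was not tested. Groups without overlap in raw foreground were seen in 0 of 3 members, against 13.0% of tested probes. Pixels within a spot varied too, with a coefficient of variation of 14.3% to 20.4% in the spots of miR-192-5p and miR-194-5p and of 20.3% to 28.2% in those of miR-215.

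**Figure D1:**
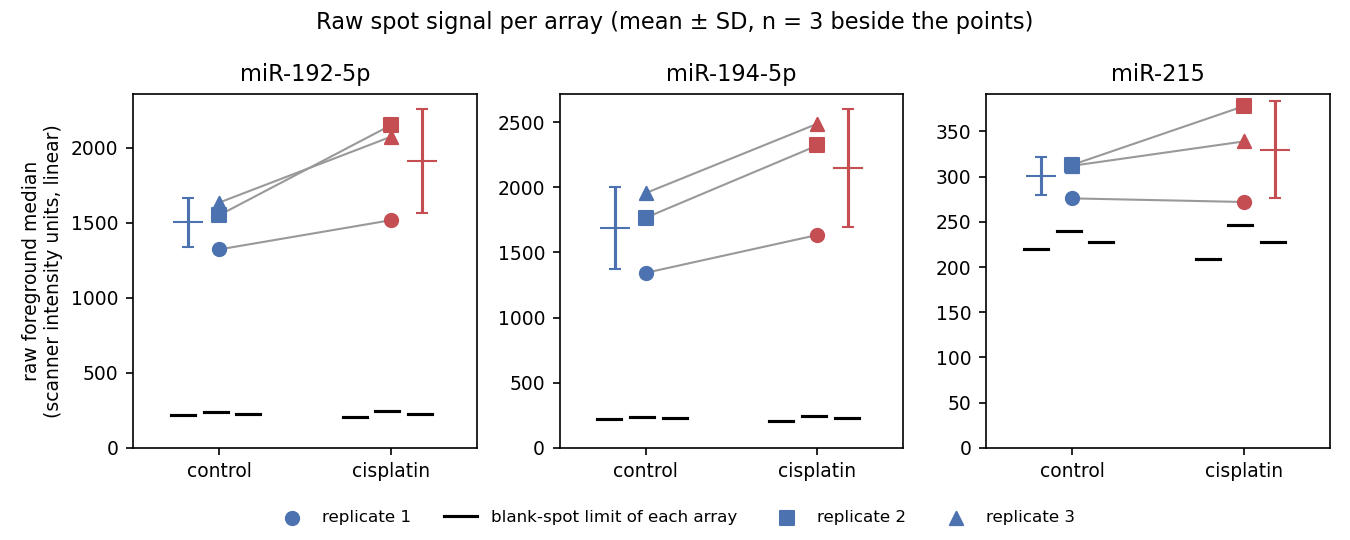
Raw foreground median in scanner units (linear axis from 0) of miR-192-5p, miR-194-5p and miR-215 on control (blue) and cisplatin (red) arrays. Grey lines join same-numbered samples, bars beside the points are mean ± SD (n = 3), and black ticks are the blank-spot limits of arrays 1, 2 and 3. miR-192-5p and miR-194-5p are higher in each cisplatin array than in the control array of the same number, and miR-215 lies just above the limits.

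The places of miR-192-5p and miR-194-5p among the 2019 probes of an array hardly moved. Ordered by raw foreground from the brightest, miR-192-5p held rank 28, 28 and 27 on control arrays and 30, 27 and 28 on cisplatin arrays. miR-194-5p held rank 27, 24 and 23 on control and 26, 24 and 22 on cisplatin arrays. Quantile normalization keeps ranks only, but those of the background-corrected values, which can differ from these. Ranks of miR-215 in raw foreground were 164.5, 159 and 155 on control and 166.5, 134.5 and 142.5 on cisplatin arrays. By these it moved toward the bright end on cisplatin arrays 2 and 3 but not on array 1.

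After background correction and quantile normalization, which gives every array the same distribution of values, miR-192-5p stood at log2 values of 10.61, 10.61 and 10.64 on control arrays. On cisplatin arrays it stood at 10.44, 10.64 and 10.61. The lowest value was that of cisplatin array 1, and the others spanned the same narrow range in both groups. The log2 fold change, cisplatin over control, was -0.058 (SE 0.069, limma adjusted p = 0.783), with a 95% interval in fold of 0.853 to 1.08. The difference was smaller in size than the SD of the cisplatin arrays (0.11) and larger than that of the control arrays (0.019).

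miR-194-5p stood at 10.68, 10.77 and 10.91 on control arrays and 10.68, 10.84 and 10.91 on cisplatin arrays, in log2 units. Number 1 was the lowest and number 3 the highest in both groups, which overlapped fully. The log2 difference between groups was 0.021 (limma SE 0.090, adjusted p = 0.962), and the interval in fold ran from 0.868 to 1.19. miR-215 stood at 7.57, 7.69 and 7.75 on control arrays and 7.49, 7.90 and 7.71 on cisplatin arrays, again overlapping. The log2 difference was 0.032 (limma SE 0.12, adjusted p = 0.957), with an interval in fold of 0.835 to 1.25. The count of members that passed was 0 of 3, as was the count at an unadjusted p under 0.05, beside 0.309% of all tested probes that passed and 15.7% at an unadjusted p under 0.05.

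The size of these values was ordinary. The median absolute log2 fold change of the 324 tested probes was 0.10 and their median log2 fold change -0.012. The absolute log2 fold change of miR-192-5p was larger than that of 28.7% of tested probes, and those of miR-194-5p and miR-215 were larger than those of 11.1% and 15.7%. Normalized groups did not overlap in 0 of 3 members, against 18.8% of tested probes.

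**Figure D2:**
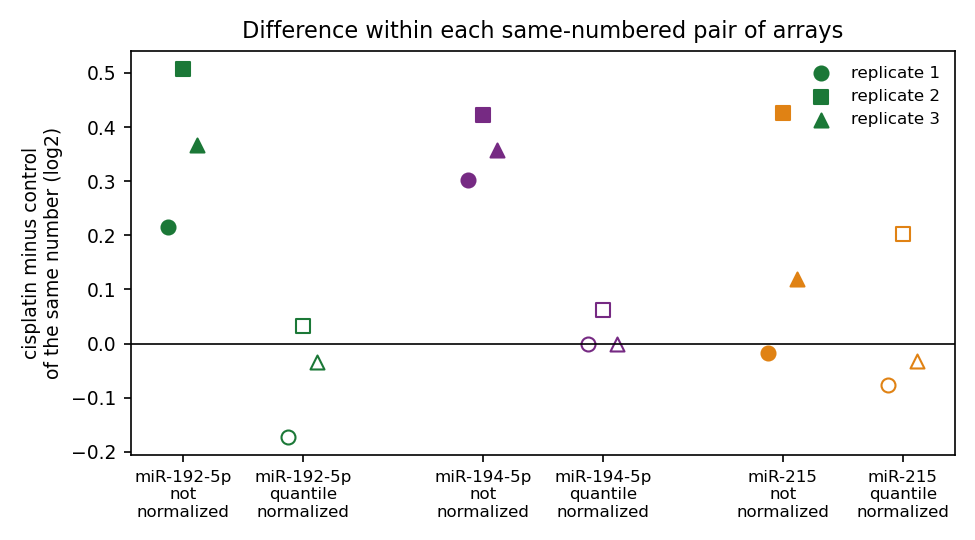
Cisplatin minus control within each same-numbered pair of arrays, in log2 units after background correction, without normalization (filled) and with quantile normalization (open). Circles, squares and triangles are replicates 1, 2 and 3. For miR-192-5p and miR-194-5p the filled points lie between 0.21 and 0.51 and the open points between -0.17 and 0.062.

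The size and in part the sign of the differences rested on how arrays were put on a common scale. Without the block for the sample number, none of the members passed under any of the scalings. When each array was only shifted to the same 75th percentile, the log2 value of miR-192-5p was 0.39 higher with cisplatin (SE 0.14, limma adjusted p = 0.238, unadjusted p = 0.0204). The difference was 0.39 for miR-194-5p (SE 0.18, limma adjusted p = 0.327, unadjusted p = 0.0586) and 0.20 for miR-215 (SE 0.15, limma adjusted p = 0.497). Under that scaling the median of all tested probes was itself 0.095, which leaves 0.29, 0.29 and 0.11 for the members. miR-192-5p then lay above 92.0% of tested probes, miR-194-5p above 91.4% and miR-215 above 68.2%, against 38.9%, 59.0% and 61.1% with quantile normalization. Most tested probes are dimmer than miR-192-5p and miR-194-5p, and probes of like brightness moved up too. The tested probe nearest miR-192-5p in normalized control mean, miR-22-3p, had 0.16 with quantile normalization and 0.49 at the 75th percentile. That nearest miR-194-5p, miR-93-5p, had -0.14 and 0.24.

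These fits do not use the sample numbers, although samples of the same number deviated together (correlations 0.44, 0.24 and 0.20). Control 3, however, correlated no less with cisplatin 2 (0.23) than with cisplatin 3. With the number as a block and the 75th percentile, the same differences had smaller errors and passed for miR-192-5p (SE 0.076, limma adjusted p = 0.0438) and miR-194-5p (SE 0.071, limma adjusted p = 0.0369). The value for miR-215 did not pass (SE 0.089, limma adjusted p = 0.204). A blocked fit leaves fewer residual degrees of freedom than the fit without the block, so its errors lean more on the variance shared over probes. In that fit 6.17% of all tested probes passed, all of them higher with cisplatin, beside 2 of 3 members. With median scaling and the block, adjusted p was 0.0325, 0.0307 and 0.225 in limma, and 8.33% of tested probes passed. Without normalization the blocked fit gave adjusted p of 0.0725, 0.0518 and 0.327, with the authors' deposited values 0.321, 0.292 and 0.374, and with cyclic loess and spike spots at least 0.372. The block did not bring a call with quantile normalization, where limma adjusted p was 0.660, 0.840 and 0.860.

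Without normalization the background-corrected pair differences of miR-192-5p were 0.21, 0.51 and 0.37 in log2 units for numbers 1, 2 and 3. Those of miR-194-5p were 0.30, 0.42 and 0.36. Pair 2 was the largest for both. With quantile normalization they became -0.17, 0.033 and -0.033 for miR-192-5p and 0, 0.062 and 0 for miR-194-5p, where a 0 marks a pair in which the normalized values were equal.

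In the authors' deposited table, values of the members were listed on all 6 arrays. miR-192-5p was listed at 1130, 1244 and 1557 on control and 1248, 1936 and 1909 on cisplatin arrays. miR-194-5p was listed at 1151, 1444 and 1907 on control and 1358, 2107 and 2333 on cisplatin arrays. For miR-215 the values were 80.2, 93.3 and 115 on control and 82.5, 168 and 137 on cisplatin arrays. Each listed value with cisplatin exceeded that of the control sample of its number, and the groups overlapped for all 3. The shares of all tested probes that did so were not computed for the deposited values, so neither count can be read as a trait of the members. On the log2 scale limma gave 0.36 for miR-192-5p, 0.36 for miR-194-5p and 0.38 for miR-215 (SE 0.25, 0.28 and 0.29). The median of all tested probes was 0.14 there, and adjusted p-values lay between 0.670 and 0.717.

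**Figure D3:**
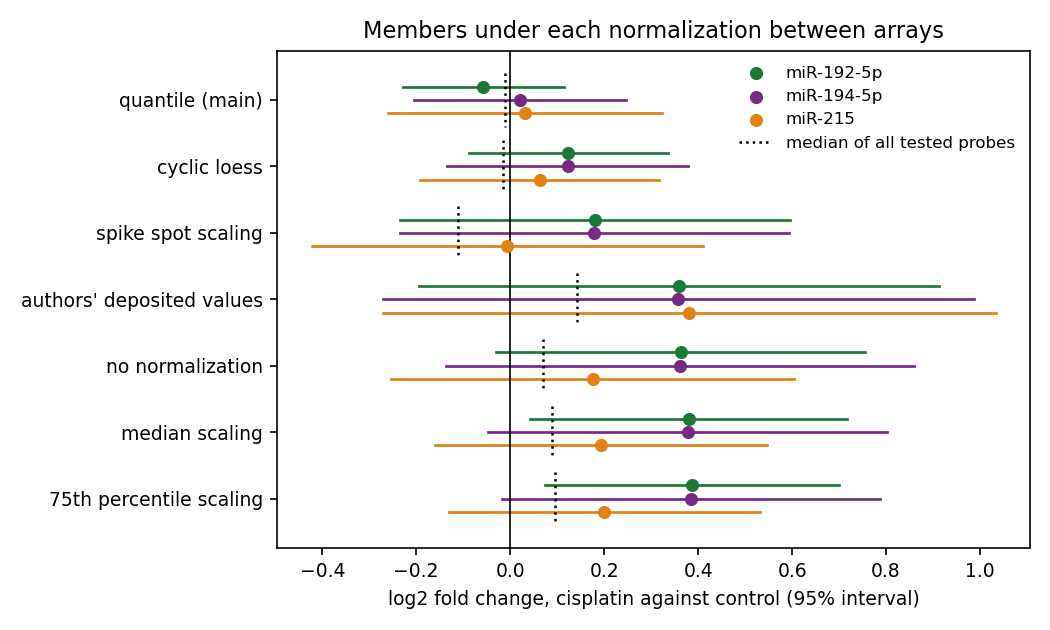
Log2 fold change of each member, cisplatin against control, with its 95% interval from limma, under 7 ways of making arrays comparable, without the block for the sample number. The dotted line is the median of all tested probes under the same setting. Intervals of miR-192-5p lie above 0 with median scaling and 75th percentile scaling, and all other intervals include 0.

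**Figure D4:**
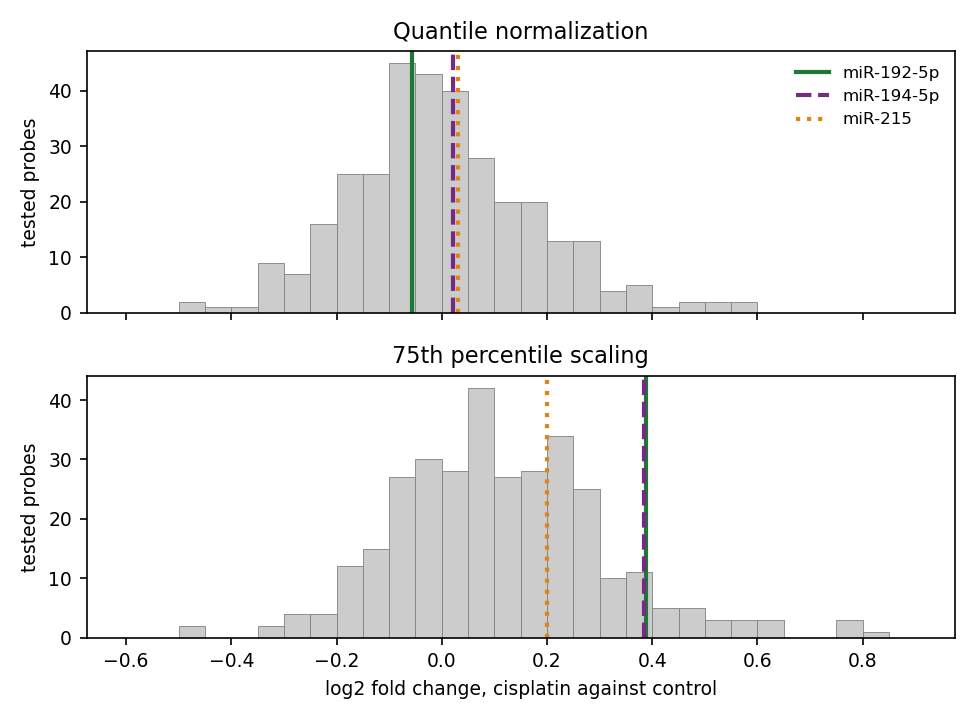
Number of tested probes by log2 fold change, cisplatin against control, for the 324 tested probes with quantile normalization (top) and 75th percentile scaling (bottom), in bins of equal width. Vertical lines mark the members. With quantile normalization they lie near the centre, and with 75th percentile scaling miR-192-5p and miR-194-5p coincide at 0.39, above 92.0% and 91.4% of tested probes. Most tested probes are dimmer than these members.

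Whether members responded differently from each other was asked on the difference of their log2 values within each array, with an exact two-sided permutation test over samples. In 3 against 3 arrays that test cannot go below 0.1, so it cannot reach the threshold. The cluster mates miR-192-5p and miR-194-5p differed in response by -0.078 (exact p = 0.3). For the seed partners miR-192-5p and miR-215 the value was -0.089 (exact p = 0.4), and for miR-194-5p and miR-215 it was -0.011 (exact p = 1). Adjusted over these 3 comparisons, the exact permutation p-values were 0.6, 0.6 and 1. That test does not use the sample numbers. A sign-flip test within same-numbered pairs cannot go below 0.25, so it cannot reach the threshold either. It gave exact p = 0.25 for the first and second differences and a larger value for the third. Without normalization, and equally when the corrected values were scaled by median, 75th percentile or spike spots, the first difference was 0.0023 (exact p = 1). The second was then 0.19 (exact p = 0.1) and the third 0.18 (exact p = 0.3), so both turned their sign. With the authors' deposited values, which have another background correction, they were -0.022 and -0.023 (exact p = 0.9 for each) and kept it.

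The other arms of the hairpins stayed at background. miR-192-3p had raw foreground of 208, 206 and 231 on control and 191, 235 and 212 on cisplatin arrays. miR-194-3p, which RefSeq lists for MIR194-2, had 204, 210 and 236 on control and 202, 235 and 223 on cisplatin arrays. Each exceeded the blank limit on 1 of 3 control arrays and 0 of 3 cisplatin arrays, so 0 of these 2 were tested. A level this near the blank spots gives only an upper bound, and no fold is reported. The 3p arm of miR-215 was not analysed here.

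The members also belong to a wider list of liver-enriched miRNAs. All 9 of the list were tested, 0 passed in limma and 3 had an unadjusted p under 0.05, against 15.7% of all tested probes. In sign, 6 of 9 were negative, against 53.7% of all tested probes, and the list's median (log2) was -0.095 beside -0.012 for all tested probes. The 3 with the small unadjusted p were both arms of miR-122, the main hepatocyte miRNA, and miR-378a-3p, a miRNA of energy metabolism. The brightest were miR-122-5p (-0.21, SE 0.050), miR-194-5p, miR-192-5p and miR-148a-3p (-0.19, SE 0.18), a repressor of the DNA methyltransferase DNMT1. miR-194-5p, miR-215 and miR-101-3p were the 3 with positive values. The counts moved with the scaling, to 6 of 9 positive and a median of 0.035 at the 75th percentile, where all tested probes had 0.095.

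**Figure D5:**
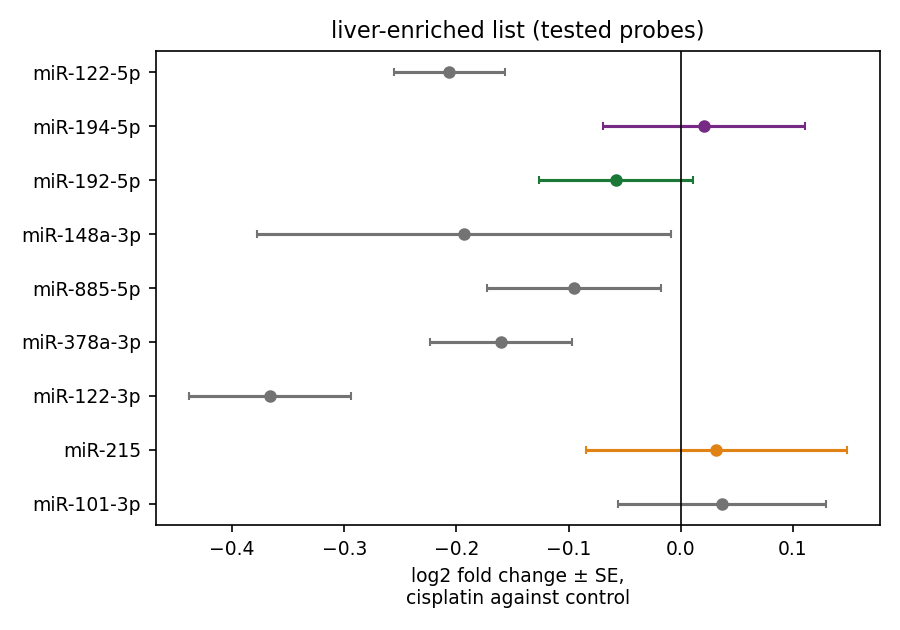
Log2 fold change ± SE, cisplatin against control with quantile normalization, of the 9 liver-enriched miRNAs, ordered by mean raw signal from the top. miR-192-5p (green), miR-194-5p (purple) and miR-215 (orange) lie between -0.058 and 0.032.

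Probes most like each member were sought by Pearson correlation of normalized log2 values over the 6 arrays, as a description only, since the arrays share groups, numbers and slide positions. For miR-192-5p they were miR-20a-5p (r = 0.99), miR-1228-5p (0.95) and miR-4689 (0.93). For miR-194-5p they were miR-15a-5p (r = 0.97), miR-6076 (0.96) and miR-151a-5p (0.96), and for miR-215 miR-642a-3p (r = 0.93), miR-148b-3p (0.91) and miR-423-3p (0.88). The members were not each other's nearest. Out of 318 probes, miR-194-5p was at place 40 for miR-192-5p (r = 0.62) and miR-215 at place 21 (r = 0.77), while for miR-194-5p the seed pair stood at places 26 (miR-215, r = 0.73) and 37 (miR-192-5p).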

How the data were processed

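Total RNA was labelled with Hy5, per the labels' protocols. Hy5 is a red dye, while the only signal columns are named 532, a wavelength used for green dyes, and which channel the name stands for is not known. The deposited scanner files hold linear intensity per spot, and pixel SD of the signal, per the file headers. The name of the scanner's software is not given in the sources used here. For comparison, the authors' deposited table of intensity equals foreground minus the trimmed mean of the blank spots, divided by 1 factor per array, and lists 698 to 988 of 2019 probes. Background was handled by normexp with an offset of 50, on median intensities of spot and surround. Human probes were then quantile-normalized, log2-transformed and fitted by lmFit and eBayes of limma 3.58.1 in R 4.3.3, which left 4 residual degrees of freedom (prior 1.52). Quantile normalization keeps ranks and removes any shift shared by probes of like brightness, and the offset shrinks the folds of dim probes. Quantile normalization and the fit were also run on simulated data that had no pairs and no shift depending on brightness. That run therefore says nothing on the choice of scaling. Figures were drawn with matplotlib 3.10.9. Array number limits the precision.

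The members and the list were chosen with earlier results of these data known. Named are the members, the other arms of their hairpins, the 3 probes most correlated with each member, and up to 4 liver-enriched miRNAs by mean signal. A further list is not reported here. Other names were added after their values were seen, to complete small counts. Same-numbered samples deviated together from their group means over the tested probes (correlations 0.44, 0.24 and 0.20). The numbers were therefore taken as pairs in the pair differences, the sign-flip tests and the blocked fits. The main fits and the permutation tests do not use them. The pairing rests on the labels' numbers and on these correlations. Cisplatin 2 and control 3 correlated likewise (0.23). Control arrays lay at slide positions 3, 1 and 3 and cisplatin arrays at 4, 2 and 4, with no position common to both groups, so that the effects of position and of cisplatin cannot be told apart. Alternatives were other background corrections, scalings, filters, moderation, blocks and each array left out. Blocked fits under other scalings were added after seeing the data.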

Additional observations from a re-analysis of the deposited data

How the results depend on the processing

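Of 31 alternatives for each member, 2 brought a call of miR-192-5p (limma adjusted p from 0.0325 to 0.968 over all) and of miR-194-5p (0.0307 to 0.999), and 0 of miR-215 (0.204 to 0.999). Both were scalings, by median and by 75th percentile, with the replicate block, chosen after seeing the data, and they made the count of members called 2 and of liver-enriched miRNAs called 2, the same miRNAs. The block leaves the values of each scaling as they are. For miR-192-5p the sign turned to 0.36 without normalization, 0.38 with median scaling, 0.39 with the 75th percentile, 0.12 with cyclic loess, 0.18 with spike spot scaling, 0.36 with the authors' deposited values and 0.34 with neither background correction nor normalization, the last chosen after seeing the data. miR-194-5p turned to -0.0089 with pixel means, and miR-215 to -0.0060 with spike spots, or 0.11 less the median of all tested probes (-0.11). Leaving out 1 array gave -0.087 to 0.0065, -0.033 to 0.090 and -0.063 to 0.14 for miR-192-5p, miR-194-5p and miR-215. The sign turned for miR-192-5p without cisplatin replicate 1, for miR-194-5p without control replicate 1 or cisplatin replicate 3, and for miR-215 without control replicate 1 or cisplatin replicate 2. The cause was not tested.

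The difference of miR-192-5p and miR-194-5p turned to 0.0023 under no normalization and every scaling, 0.0020 with cyclic loess and 9.0e-04 with the authors' values. That of miR-192-5p and miR-215 turned to 0.19, 0.062 with cyclic loess and 0.21 with neither step, and that of miR-194-5p and miR-215 to 0.18, 0.060 and 0.22. With the authors' values these were -0.022 and -0.023, and the first was -0.0037 with neither step. Leaving out 1 array gave -0.12 to -0.031, -0.13 to -0.024 and -0.053 to 0.070, the last positive without control replicate 3 or cisplatin replicate 2. With quantile normalization and the replicate number as a block the members' values stayed as they were, and adjusted p was 0.660, 0.840 and 0.860. The block ended the call of miR-1304-3p, the 1 probe that passed over the whole array with that normalization. In blocked fits the count passing was 20 without normalization, 27 with median scaling, 20 with the 75th percentile, 4 with cyclic loess, 7 with spike spots and 0 with the authors' values (53 at an unadjusted p under 0.05).

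Over the whole array the count of probes passing in limma was 1 (51 at an unadjusted p under 0.05). It was 3 without background correction, 2 with median scaling, 3 with the 75th percentile and 4 with cyclic loess. It was 0 without normalization, with spike spots, pixel means, the authors' values, no detection filter, detection on all 6 arrays, blanks plus 3 SD, trend and robust moderation, and the replicate block, where 33, 13, 39, 29, 97, 39, 40, 38 and 57 probes had an unadjusted p under 0.05. Leaving out any 1 array gave 0 (47 to 85 unadjusted). For miR-215, signal near the blank limit restricts what can be seen.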
